A study of Mus musculus with 23 samples.

Results

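The Kruppel-like factors examined here were Klf2, Klf3, Klf4, Klf5, Klf6, Klf7, Klf9, Klf10, Klf13 and Klf15, taken by symbol from a table of 24029 genes, and all 10 were present. The table gives RPKM, reads scaled to gene model length and to the read total, in 6 RNA libraries of C3H10T1/2 cells, a mouse mesenchymal line of the C3H strain that can be turned into fat cells. All cultures had received human recombinant BMP7 at 8.3 nM for 3 days before day 0. Day 0 stands for pre-adipocytes, before induction. Day 7 stands for mature adipocytes, which had been given DEX (5 uM), IBMX (0.5 mM), insulin (0.12 ug/ml), a compound labelled Rosi (1 uM) and T3 (1 nM) until day 2, and insulin, Rosi and T3 at the same doses from then to day 7. Each day has 1 library made by a standard procedure with oligo(dT) enrichment and 1 made by TELP, the library construction method of the series, under the label N9. Day 7 has TELP libraries labelled N9_ss and T18 as well, and the labels do not spell out these names. Each group is 1 library, so there is no replicate error for any value, and nothing in the labels says that the RNA of the libraries came from separate cultures.

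Kruppel-like factors (KLFs) are transcription factors with zinc fingers at the C-terminal end that bind GC-rich and CACCC sequences in DNA, and their remaining parts recruit coactivators or corepressors. Different members act for or against fat cell formation, largely by switching the genes of the adipogenic factors PPARG and C/EBP on or off. Klf4, Klf5, Klf6, Klf9, Klf13 and Klf15 have been described as promoting adipogenesis, and Klf2, Klf3 and Klf7 as opposing it. Klf10 is known as an early gene of the TGF-beta response.

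In outline, Klf4 and Klf7 were lower and Klf15 was higher in adipocytes than in pre-adipocytes in both library types. Promoters of these 3 genes are shown because the day 7 to day 0 results turn on them. They run from 250 bases before to 50 bases after the annotated start, from RefSeq on build GRCm38.p6, which is not the mm9 build of the deposited values. Capitals mark matches on either strand to GGGCGG (GC box), CACCC (the KLF-type box), CCAAT and TGACG (the shorter form of the cAMP response element), which can overlap.
Klf4, GRCm38.p6 chr4:55532426-55532725, minus strand: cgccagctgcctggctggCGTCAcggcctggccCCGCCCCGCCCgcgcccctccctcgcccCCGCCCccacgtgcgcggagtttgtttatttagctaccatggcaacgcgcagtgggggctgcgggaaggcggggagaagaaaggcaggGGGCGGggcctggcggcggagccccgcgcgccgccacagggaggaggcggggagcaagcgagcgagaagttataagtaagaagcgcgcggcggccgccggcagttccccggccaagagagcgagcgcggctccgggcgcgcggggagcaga
Klf7, GRCm38.p6 chr1:64121340-64121639, minus strand: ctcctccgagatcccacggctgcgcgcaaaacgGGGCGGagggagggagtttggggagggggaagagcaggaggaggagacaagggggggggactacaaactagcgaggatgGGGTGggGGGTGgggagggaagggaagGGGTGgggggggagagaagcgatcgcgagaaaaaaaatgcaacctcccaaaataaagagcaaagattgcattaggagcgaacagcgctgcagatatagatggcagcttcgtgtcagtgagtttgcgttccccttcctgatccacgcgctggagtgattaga
Klf15, GRCm38.p6 chr6:90462326-90462625, plus strand: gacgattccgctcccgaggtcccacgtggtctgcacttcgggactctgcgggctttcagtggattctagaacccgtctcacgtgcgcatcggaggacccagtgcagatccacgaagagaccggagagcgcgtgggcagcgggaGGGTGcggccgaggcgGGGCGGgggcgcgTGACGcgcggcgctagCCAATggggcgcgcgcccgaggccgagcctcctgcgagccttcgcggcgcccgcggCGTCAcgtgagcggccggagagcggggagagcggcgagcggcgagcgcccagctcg
The Klf4 window held 4 GC boxes, 1 TGACG and no CACCC. The Klf7 window held 1 GC box and 3 CACCC boxes, and the Klf15 window 1 GC box, 1 CACCC, 1 CCAAT and 2 TGACG. Of the members, 8 had a window in the RefSeq table. GGGCGG was found in 7 of these 8, against 35.7% of all 32851 windows, CACCC in 6 against 57.5%, TGACG in 6 against 20.8%, and CCAAT in 4 against 37.4%. Members' windows were GC-rich, at 74.3% for Klf4, 58.3% for Klf7 and 73.3% for Klf15 against a median of 52.7% over all windows. TATAAA, TGACGTCA (the whole cAMP response element), the full glucocorticoid response element, its shorter form AGAACA and the PPAR response element were in 0 of the 8, against 13.6%, 1.79%, 0.00913%, 19.0% and 0.0396% of all windows. A match to letters is no evidence of binding, and a missing match concerns this window only.

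The labelled cell states were checked on markers. Of 10 adipocyte markers 9 were measured above the filter and all 9 were at least 1 log2 unit higher at day 7 in both library types, with Lep listed at 0 throughout. The summed RPKM of the list was 31.8 to 40.6 at day 0 and 5610 to 32055 at day 7. Relative depth could be read from low values, which step in multiples of what 1 read is worth. Against standard day 0, depth was 1.57 for TELP N9 of the same day. At day 7 it was 0.985 for the standard library, 0.382 for N9, 0.400 for N9_ss and 0.331 for T18. T18 stands apart, since its 10 most abundant genes hold 79.8% of its RPKM against 7.56% to 32.8% elsewhere, and N9_ss had the read number of N9 in 2995 of 3609 low genes, so it is no replicate of it. In bulk RNA, fewer cells of a type and less RNA per cell cannot be told apart.

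**Figure D1:**
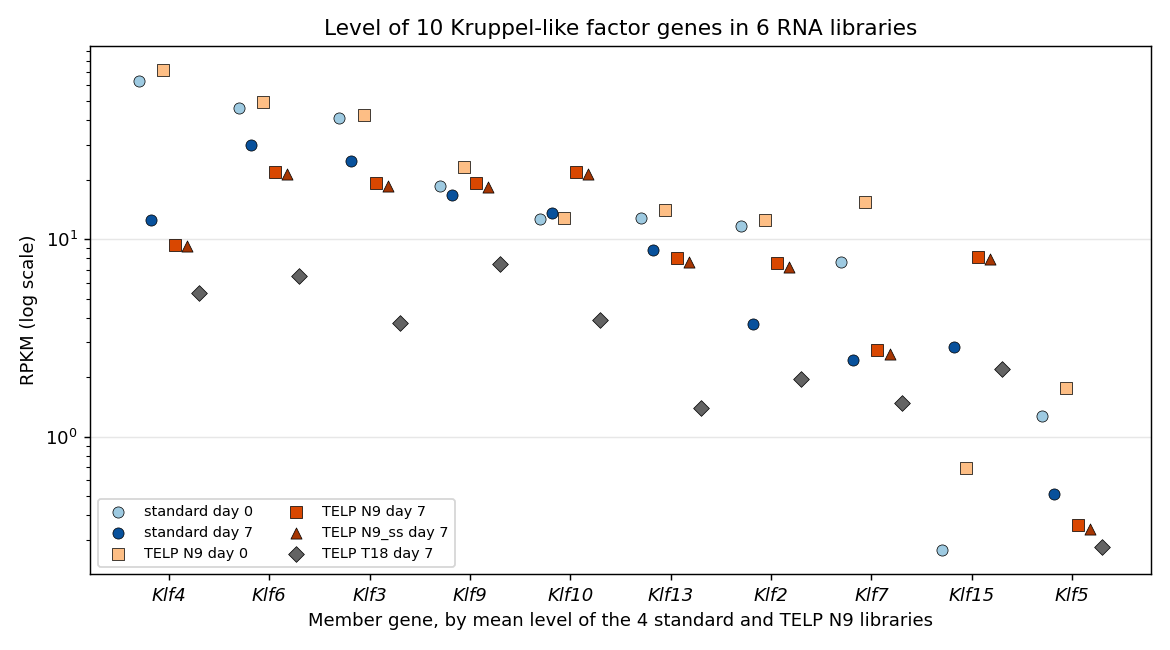
RPKM of the 10 members on a log axis, 1 point per library, with genes ordered by their mean over the standard and TELP N9 libraries. Klf4 led at day 0 with 63.4 and 71.9 RPKM, Klf15 was the only member whose day 0 points both lie below all of its day 7 points, and the grey T18 points lie low for most members.

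Day 7 was first set against day 0 to ask how each KLF differed between adipocytes and pre-adipocytes. Differences are of log2(RPKM + 1), which understates the change of low genes. A gene was kept where its mean was at least 1 RPKM over the libraries compared, and called higher or lower at a difference of at least 1. By this rule 1 member, Klf15, was called higher in both library types and 2, Klf4 and Klf7, lower, out of the 9 members kept over the 4 libraries. Over all 11474 genes kept, 7.23% were called higher and 5.81% lower in both types. Klf5 was under the filter. In the standard libraries alone 1 of 9 members kept was called higher (8.22% of all genes) and 3 lower (6.53%). In TELP N9 alone 1 of 10 was called higher (13.9%) and 5 lower (29.9%). Members had a median difference of -0.61 by the standard method and -0.88 by TELP N9, against -0.18 and -0.45 for all genes kept in the same comparisons. Scaling moves this balance. Under median of ratios scaling the median of all genes went to -0.01 in both types, the share of calls that were higher went from 55.7% to 68.6% by the standard method and from 31.8% to 51.6% by TELP N9, and the members called in both types were still Klf15, Klf4 and Klf7. With that scaling 8.75% of all genes were called higher and 4.03% lower in both types.

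Both day 0 values exceeded all 4 day 7 values for 6 of the 9 members kept (Klf2, Klf3, Klf4, Klf6, Klf7 and Klf13), and 47.5% of all genes kept did the same. Klf15 lay below all 4, as did 4.44% of genes. Klf9 and Klf10 overlapped between the days. The day 7 group contains T18, and without it the 6 members stay the same, Klf10 joins Klf15, and the shares of all genes are 47.7% and 21.5%.

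**Figure D2:**
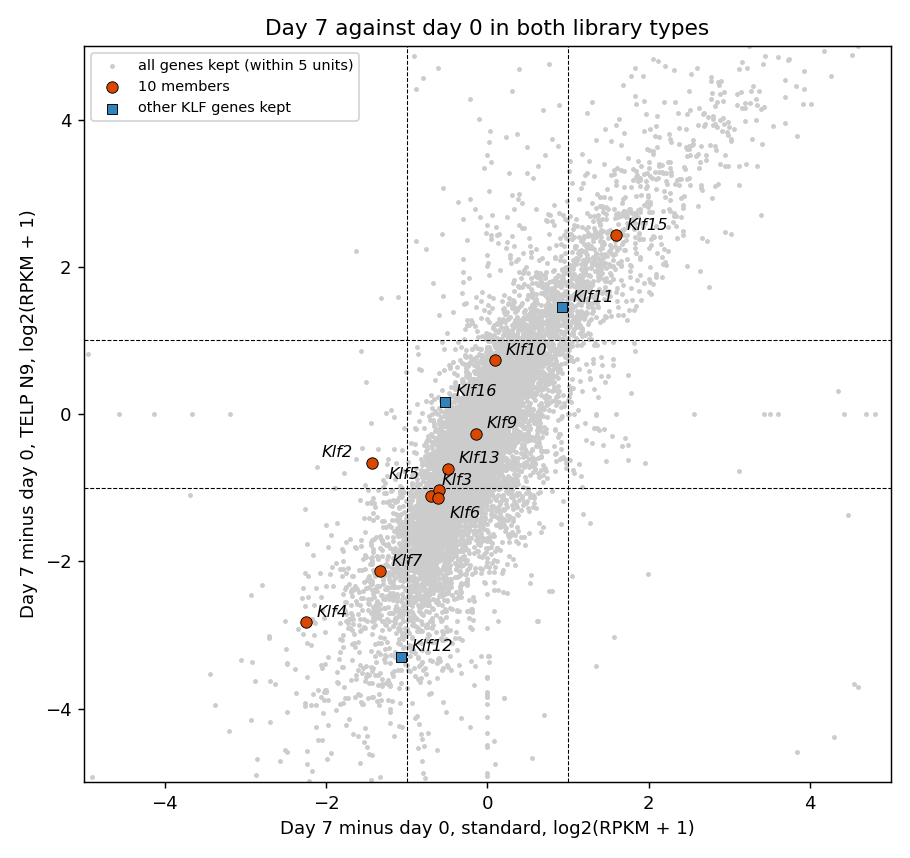
Difference of log2(RPKM + 1), day 7 minus day 0, in the standard (x axis) and TELP N9 (y axis) libraries for all genes kept (grey, those within 5 units), the 10 members (orange) and other KLF genes kept (blue), with dashed lines at 1 and -1. Klf15 lies in the upper right and Klf4 and Klf7 in the lower left corner, Klf2 is past the line by the standard method only, and Klf5, drawn for completeness, is under the filter.

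Among the members that promote adipogenesis, Klf4 stood out. In 3T3-L1 cells it is known to act in the first hours of induction, with Egr2 (Krox20), on the Cebpb gene. The level of Klf4 was 63.4 RPKM (standard) and 71.9 (TELP N9) at day 0, then 12.5 (standard), 9.30 (N9), 9.25 (N9_ss) and 5.35 (T18) at day 7. Both pre-adipocyte libraries lay far above every adipocyte library. Klf4 was 5.06-fold lower at day 7 by the standard method and 7.73-fold lower in TELP N9, differences of -2.25 and -2.82 in log2(RPKM + 1), the lowest of the members in both types. Ranked among all genes of its library, it went from place 933 to 4621 by the standard method and from 875 to 4970 by TELP N9.

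Klf15, known for activating Slc2a4 (the insulin-responsive glucose transporter GLUT4) and genes of amino acid catabolism, went the other way. Its level was 0.266 RPKM (standard) and 0.697 (TELP N9) at day 0, then 2.83 (standard), 8.16 (N9), 7.89 (N9_ss) and 2.21 (T18) at day 7. The lowest adipocyte value was above the highest pre-adipocyte value. On the RPKM scale the ratio of day 7 to day 0 was 10.7 by the standard method and 11.7 by TELP N9, while the differences in log2(RPKM + 1) were 1.60 and 2.43. Klf15 was the least abundant member in both day 0 libraries and in places 6 to 8 of 10 at day 7.

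Klf5 is known to be induced by C/EBP factors early in differentiation and to activate Pparg2. It was scarce in every library, with 1.28 (standard) and 1.77 RPKM (TELP N9) at day 0, then 0.510 (standard), 0.358 (N9), 0.342 (N9_ss) and 0.276 (T18) at day 7. Day 0 was higher in both types, by 2.51-fold by the standard method, where the gene was under the filter, and by 4.94-fold in TELP N9, where it was called lower at -1.03.

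Klf6, described as a repressor of the preadipocyte gene Dlk1, was abundant on both days. It stood at 46.2 and 49.6 RPKM in the standard and TELP N9 libraries of day 0, and at 30.0, 21.98, 21.3 and 6.53 in standard, N9, N9_ss and T18 of day 7. All adipocyte values were lower, yet the difference was called in TELP N9 alone (-1.14 against -0.61 by the standard method). Dlk1 itself went from 5.60 to 0.784 RPKM by the standard method and from 7.77 to 0.395 by TELP N9.

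Klf9 and Klf13 belong to the KLF group that binds the corepressor SIN3A, and both have been described as activators of Pparg. Klf9, which responds to glucocorticoids, had 18.6 and 23.3 RPKM at day 0 in the standard and TELP N9 libraries, and 16.7, 19.2, 18.4 and 7.47 in standard, N9, N9_ss and T18 at day 7. The days overlapped, with differences of -0.14 and -0.27. Their sign depends on scaling, since median of ratios gave 0.05 by the standard method and 0.22 by TELP N9. Klf13 went from 12.7 to 8.79 RPKM by the standard method (-0.49) and from 14.1 to 8.02 in TELP N9 (-0.74), with 7.66 in N9_ss and 1.39 in T18, and was called in neither type.

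Of the members that oppose adipogenesis, Klf7 was lower in both library types. Its level was 7.62 RPKM (standard) and 15.4 (TELP N9) at day 0, then 2.43 (standard), 2.73 (N9), 2.61 (N9_ss) and 1.48 (T18) at day 7. The day 7 values lay close together outside T18, while the day 0 values differed between the library types. Differences were -1.33 by the standard method and -2.14 by TELP N9, or 3.13-fold and 5.64-fold lower in RPKM.

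Klf2, a repressor of Pparg2 that is also abundant in endothelium, had 11.7 and 12.5 RPKM at day 0. At day 7 it was at 3.72 in the standard library, 7.55 in N9, 7.21 in N9_ss and 1.95 in T18. It was called lower by the standard method (-1.43) and not in TELP N9 (-0.66), so the library types agreed at day 0 and parted at day 7. Klf3, which represses Cebpa together with the corepressor CtBP, had 41.2 and 42.5 RPKM at day 0 and 25.0, 19.2, 18.7 and 3.78 at day 7 in standard, N9, N9_ss and T18. Its differences were -0.70 and -1.11, and it was called in TELP N9 alone. Median of ratios scaling took Klf3 (-0.61), Klf5 (-0.80) and Klf6 (-0.64) out of the calls of TELP N9. Klf10 had 12.6 and 12.7 RPKM at day 0, and 13.6, 21.8, 21.4 and 3.90 at day 7. It differed by 0.10 by the standard method and 0.73 by TELP N9 and was called in neither, although median of ratios scaling brought it past the threshold in TELP N9, at 1.22.

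The reads behind these values could be found for 5 members, as the smallest whole numbers that fit 5 libraries within 0.03 reads. TELP N9 day 0 was left out of that fit and rounded, with a deviation of up to 0.34 reads. If a fit is right, true counts are these numbers or a whole multiple of them. The intervals below are then at their widest, and they cover counting error only. Klf6 fitted least closely, off by 0.0086 reads in standard day 7, where the other members found were within 8.3e-05. Whether its fit arose by accident was not tested. Klf15 rested on 8 reads in standard day 0, 84 in standard day 7, 33 in TELP N9 day 0 and 94 in N9 day 7. The exact 95% interval of its day 7 to day 0 ratio was 5.17 to 25.5 by the standard method and 7.80 to 17.99 by TELP N9. Klf5 rested on 28 and 11 reads by the standard method and on 61 and 3 by TELP N9, with intervals of 0.179 to 0.826 and 0.0406 to 0.620. Both Klf5 intervals lie below 1, although N9 day 7 holds only 3 reads. For Klf7, with 124 and 39 reads by the standard method and 395 and 17 by TELP N9, the intervals were 0.217 to 0.461 and 0.102 to 0.287. Klf2 had 0.246 to 0.406 by the standard method and 0.459 to 0.781 by TELP N9, which do not overlap. Klf6 had 0.550 to 0.763 and 0.342 to 0.568. No such numbers up to 400 reads were found for Klf3, Klf4, Klf9, Klf10 and Klf13.

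**Figure D3:**
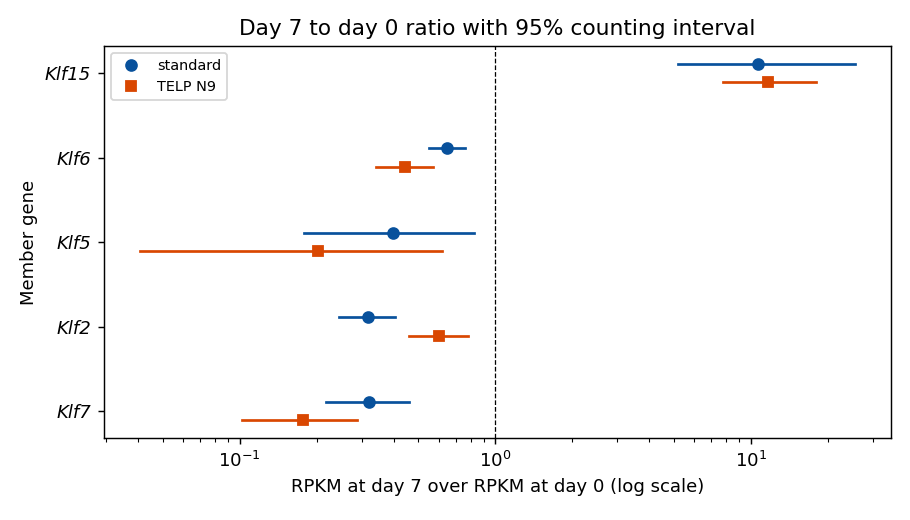
Ratio of RPKM at day 7 to day 0 (log axis) for the 5 members with recovered reads, in the standard (circles) and TELP N9 (squares) libraries, with exact 95% counting intervals as lines and a dashed line at a ratio of 1. Klf15 lies near 10.7 and 11.7, the other 4 lie below 1, and the intervals of Klf2 do not meet.

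The disagreement between library types over the day difference can serve as its error in a limma fit with library type as a block. This fit has 1 residual degree of freedom and measures no spread between cultures. None of the 9 members kept passed it at a false discovery rate of 0.05 over 11474 genes, of which 0.715% passed as higher and 0.105% as lower. The lowest adjusted p of limma among members was 0.0695 for Klf4, then 0.103 for Klf15 and 0.119 for Klf7. For Klf4 the call depends on how limma estimates the spread. Klf4 passed as lower with the trend option, at an adjusted p of 0.0492 (limma), where 1.41% of genes passed as higher and 0.209% as lower. It passed with the robust option too, at an adjusted p of 0.0485 (limma), with 1.82% higher and 0.314% lower. The other members kept passed under neither option, and both were added after the data were seen. Unadjusted, 5 members (Klf2, Klf3, Klf4, Klf7 and Klf15) were under 0.05, as were 26.3% of all genes.

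Within a library, the share of each gene in the summed RPKM of the 17 KLF genes is the same under any scaling by 1 factor per library, which quantile normalization is not. Klf4 made up 26.3% (standard) and 26.6% (TELP N9) of KLF RNA at day 0, and 9.39%, 6.80%, 6.98% and 14.3% at day 7 in standard, N9, N9_ss and T18. It was thus the first of the members at day 0 in both types, and in places 3 to 5 at day 7. Klf15 went from 0.110% to 2.12% by the standard method and from 0.258% to 5.97% by TELP N9. Klf9 and Klf10, which were not called, took larger shares at day 7. For Klf9 this gain is relative to the KLF sum only. Its own RPKM was lower at day 7, from 18.6 to 16.7 (standard) and from 23.3 to 19.2 (TELP N9). Klf9 went from 7.71% to 12.5% and from 8.60% to 14.0%, and Klf10 from 5.23% to 10.2% and from 4.71% to 16.0%. Klf6 moved in opposite directions, from 19.2% to 22.5% by the standard method and from 18.3% to 16.1% by TELP N9. The sum itself was 241 and 271 RPKM at day 0, and 134, 137, 133 and 37.3 at day 7. Members held 86.5% to 92.0% of it.

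**Figure D4:**
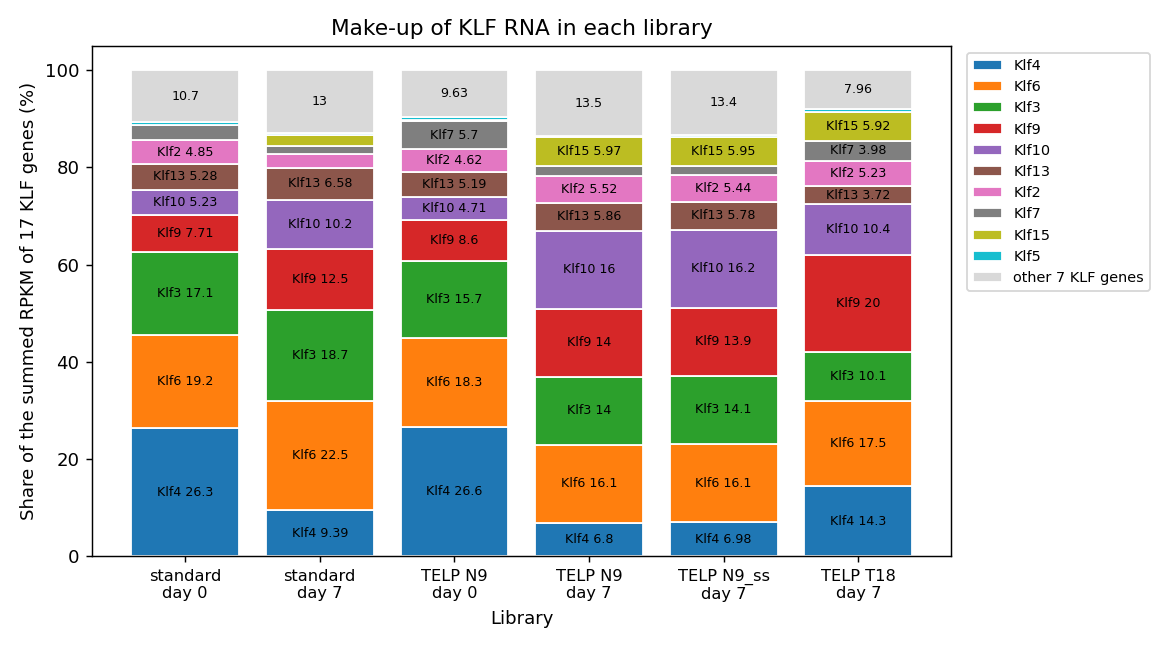
Stacked bars of the share (%) that each gene takes in the summed RPKM of 17 KLF genes, 1 bar per library, with the 7 KLF genes outside the members in grey. The Klf4 segment shrinks from 26.3% and 26.6% at day 0 to 6.80% to 14.3% at day 7, while those of Klf9, Klf10 and Klf15 widen.

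The other KLF genes gave 3 kept out of 7 in the table. Over all genes kept, 7.23% were called higher and 5.81% lower in both types, and in TELP N9 alone 13.9% and 29.9%. Klf12 was lower in both types, from 13.5 to 5.90 RPKM by the standard method (-1.07) and from 14.6 to 0.591 in TELP N9 (-3.30). The types were close at day 0 (TELP N9 minus standard 0.11) and far apart at day 7 (-2.12). That day 7 gap was a call of lower, which 17.0% of all genes shared. Klf11, a close relative of Klf10, went from 2.09 to 4.87 RPKM (0.92) and from 2.36 to 8.17 (1.45) and was called in TELP N9 only. Klf16 had 9.30 and 6.13 RPKM by the standard method and 8.13 and 9.27 by TELP N9. Klf8 was at 0.810 RPKM or less and Klf1 at 0.159 or less in every library, and Klf14 and Klf17 were listed at 0 in 5 of the 6. The related Sp factors, which bind similar GC-rich sites, gave 4 kept out of 9 and 0 called in both types. In TELP N9 2 of them, Sp1 and Sp4, were called lower, where 29.9% of all genes were. Sp1 went from 24.7 to 14.5 RPKM in the standard (-0.73) and from 29.7 to 10.4 by TELP N9 (-1.43). Sp3 had differences of -0.34 and -0.31, Sp2 of -0.32 and 0.14, and Sp4 of -0.59 and -1.16.

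Genes that KLFs are reported to control in fat cells, and their partners, were measured as a list. Of these 12 7 were higher and 4 lower in both types, with medians of 1.32 by the standard method and 2.49 by TELP N9, against -0.17 and -0.46 for all genes kept. Among all genes kept, 7.23% were higher and 5.81% lower in both types. Pparg, Cebpa, Fabp4 and Adipoq are also on the adipocyte marker list, and Dlk1 is on the preadipocyte list. The count is therefore tied to the labelled cell states, and the part of KLFs in it was not tested. Cebpb, on which Klf4 acts, was higher at day 7, from 8.72 to 21.9 RPKM in the standard (1.24) and from 16.1 to 113 by TELP N9 (2.74). Cebpd was lower (-1.72 and -2.31), and so was Egr2, the partner of Klf4 (-1.89 and -1.005). Pparg, a target of several members, was higher by 1.40 and 2.24, and Cebpa by 3.62 and 5.02. Slc2a4 was listed at 0 (standard) and 0.0674 RPKM (TELP N9) at day 0, and stood at 18.4 and 64.1 at day 7.

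Of 10 genes reported as metabolic targets of KLF15 in various tissues, 8 were kept and all 8 were called higher in both types, with medians of 2.46 and 3.52. Among all genes kept, 7.23% were called higher in both types. Gpt, an alanine aminotransferase, was higher by 4.75 and 5.95, Pdk4, a kinase that inhibits pyruvate dehydrogenase, by 2.68 and 4.09, and Bckdhb, a subunit of the branched-chain ketoacid dehydrogenase, by 2.71 and 3.45. Prodh, also on the list, was at 0.271 RPKM or less and Aass was listed at 0 in all 6 libraries. Slc2a4 is among these 8 and on the list before as well. The part of Klf15 in the levels of these genes was not tested.

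Cofactors of KLF proteins were mostly not called in both library types. Of 12 corepressors and coactivators 1 was lower in both types, Sap30, a subunit of the SIN3 complex (-1.76 and -2.38), and 0 were higher. Called lower were 1 by the standard method (6.53% of all genes) and 5 in TELP N9 (29.9%). Medians were -0.41 and -0.87. Among 14 upstream regulators, Mef2c, a transcription factor downstream of the MAPK7 kinase, was the 1 called lower in both (-1.11 and -1.45), and 0 were higher, with medians of -0.37 and -0.78. By the standard method 2 of these regulators were called lower, and in TELP N9 5. In both types 5.81% of all genes kept were lower and 7.23% higher.

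Several members are also known as early response or endothelial genes, so both kinds of marker were measured. Of 13 immediate early genes kept, 4 were lower in both types, namely Egr1 (-2.27 and -1.29), Egr2, Egr3 (-2.28 and -2.36) and Nr4a1 (-2.93 and -2.46), and 0 were higher in both. Among all genes kept, 5.81% were lower and 7.23% higher in both types. The library types parted on the immediate early genes, with 3 called higher in TELP N9 (13.9% of all genes) and 0 by the standard method (8.22%). Their medians were 0.59 in TELP N9 and -0.73 by the standard method. Fosl1 (4.13 in TELP N9 and 0.69 standard), Atf3 (2.62 and 0.74) and Dusp1 (1.93 and -0.30) are these 3, named after their values were seen. The summed RPKM of this list was 114 and 145 at day 0 in the standard and TELP N9 libraries, and 45.5, 172, 167 and 15.9 at day 7 in standard, N9, N9_ss and T18. Its part in the levels of Klf2, Klf4, Klf6 and Klf10 was not tested. Of 8 endothelial markers 7 were under the filter, with Pecam1 at 0.185 RPKM or less, Cdh5 at 0.0467 or less and Tie1 listed at 0 in every library. Tek was at 11.2 and 9.46 RPKM at day 0 and lower at day 7 (-2.48 and -3.39). Of 9 glucocorticoid targets kept, Zbtb16 was higher in both types (1.21 and 1.95) and Errfi1 (-1.22 and -1.50) and Cebpd were lower. By the standard method 2 of them were called higher (8.22% of all genes) and 2 lower (6.53%). In TELP N9 3 were called higher (13.9%), with Dusp1 counted here too, and 2 lower (29.9%). Medians of the glucocorticoid targets were -0.30 by the standard method and 0.32 in TELP N9. Of 7 macrophage and leukocyte markers that the table holds, 2 were kept and 0 were called in both types, with sums of 0.944 to 6.19 RPKM. In TELP N9 1 was called higher (13.9% of all genes), Cd68, from 0.423 to 4.70 RPKM (2.00, and 0.48 by the standard method). Of 9 mesenchymal and preadipocyte markers 3 were lower in both types, Cd34 (-1.73 and -2.90), Dlk1 (-1.89 and -2.65) and Cd44 (-1.24 and -2.38). All 9 were called lower in TELP N9 (29.9% of all genes) and 3 by the standard method (6.53%), with medians of -2.45 and -0.63. Their summed RPKM went from 2076 to 619 in TELP N9 and from 2098 to 1529 in the standard libraries.

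Genes with the pattern most like Klf15 and Klf4 over 5 libraries (N9_ss left out) were named by Pearson's r of log2(RPKM + 1) among 11025 genes, as a description with few points. For Klf15 these were Mpc1 (r = 0.998), a subunit of the mitochondrial pyruvate carrier, Uqcrq (0.998), of respiratory complex III, Ufsp1 (0.997), Eci1 (0.996), an enzyme of fatty acid oxidation, and Acp5 (0.994). Klf4 was followed most closely by Adra2a, an adrenergic receptor, Fblim1, Slc26a7, Cmklr1, the receptor of chemerin, and Csrp2, with r of 0.998 to 1.000. Csrp2 went from 272 to 54.3 RPKM by the standard method and from 285 to 49.6 by TELP N9.

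The library types were then compared on each day, with libraries that the day comparison also used. At day 0, 0 of the 9 members kept were called, where 2.20% of all genes were called higher and 0.718% lower in TELP N9. Klf7 came nearest, at 7.62 RPKM by the standard method and 15.4 in the TELP N9 library (0.93), and the other members kept differed by 0.01 to 0.31. At day 7 Klf15 was called higher in TELP N9, at 8.16 against 2.83 RPKM (1.26), the 1 of 9 members kept. Under equal totals scaling its value was 0.9975, just short of the threshold. Genes called higher made up 7.51% and genes called lower 17.0% of all genes. Klf2 was next at 0.86 and Klf10 at 0.65, while Klf6 had the lowest difference, -0.43. Members had a median of 0.12 against -0.23 for all genes. Under median of ratios scaling 47.5% of all calls were higher, against 30.7% as deposited, and under the equal totals scaling 15.6%.

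Among the TELP libraries of day 7, N9_ss and N9 differed by -0.06 to -0.01 in the 9 members kept, and 0 were called (0.0194% of all genes called higher, 0.00968% lower). In reads, Klf2, Klf5 and Klf7 had equal numbers in both (67, 3 and 17), and Klf15 had 1 more in N9_ss. Klf6 also had 1 more there by its less close fit. T18 was lower than N9 for all 9 members kept, and 7 were called lower, where 83.4% of all genes were called lower and 0.841% higher. Klf10 had the lowest difference (-2.22) and Klf7 (-0.59) and Klf4 (-0.70) the highest, with a median of -1.53 for members and -1.77 for all genes. Directions flip with scaling here. With median of ratios, which raises the median of all genes to -0.13 and the share of calls that are higher from 0.999% to 39.7%, Klf4 was called higher in T18 (1.22) and 0 members lower. Under that scaling 9.20% of all genes were called higher and 14.0% lower. Within the KLF sum, Klf4 held 14.3% in T18 and 6.80% in N9, Klf9 20.03% and 14.0%, and Klf3 10.1% and 14.0%.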

How the data were processed

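RNA was measured in 6 of the 23 samples, and 17 chromatin immunoprecipitation libraries are not analysed here. For each gene and library the authors deposited an RPKM value. Bowtie2, TopHat and Cufflinks and build mm9 are named per the submitters' processing notes, and for versions, annotation, strand handling and read total the sources used here say nothing. All 10 member symbols are current mouse symbols. Members, gene lists and tests were chosen with earlier results of these data known.

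From the RPKM, differences of log2(RPKM + 1) were computed for genes averaging 1 RPKM or more in the compared libraries, and called at 1 log2 unit. With 1 library per group no test was made apart from limma 3.58.1 (R 4.3.3), with Benjamini-Hochberg adjustment, on 4 libraries with library type as a block. Named genes were the members, other KLF and Sp genes averaging 1 RPKM or more, up to 4 members per other list with the largest mean difference among those called in both library types, 6 further adipogenic genes (Pparg, Cebpa, Cebpb, Cebpd, Slc2a4 and Dlk1) and the 5 genes most like the highest and the lowest member. Genes outside that rule (Klf1, Klf8, Klf14, Klf17, Prodh, Aass, Lep, Pecam1, Cdh5 and Tie1, and Fosl1, Atf3, Dusp1 and Cd68) were named after their values were seen. Read numbers came from ratios of low values between libraries. They were not found for every gene, so no count test was run. Tried as well were a filter at 5 RPKM or none, a pseudocount of 0.1 RPKM, 3 scalings, and N9_ss or T18 in place of N9. Calls and the read search were tested on simulated data. Every simulated gene of the read search had whole reads, so the rate of false fits was not measured. Python 3.11.15 with numpy 2.4.6, pandas 2.3.3, scipy 1.17.1 and matplotlib 3.10.9 was used.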

Additional observations from a re-analysis of the deposited data

Results flagged for a closer look

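Klf16 and Sp2 differed in opposite directions between the library types, and the difference between the types was not tested, since each has 1 library per day. Klf16 was at -0.53 log2 units (day 7 minus day 0) by the standard method and at 0.17 by TELP N9. In recovered reads its day 7 to day 0 ratio had a 95% counting interval of 0.552 to 0.786 by the standard method and 0.927 to 1.39 by TELP N9. Sp2 was at -0.32 by the standard method and at 0.14 by TELP N9. Neither gene was called in either type.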

How the results depend on the processing

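Klf15 as the 1 member higher at day 7 in both library types was kept under a pseudocount of 0.1, no filter, all 3 scalings and N9_ss. The count was 0 with a filter at 5 RPKM (8.54% of all genes), which removes Klf15 by its level. It was 0 with T18 in place of N9 (1.77%) and 0 by limma, also with its trend and robust options. Klf4 and Klf7 as the 2 members lower in both were kept under all alternatives except limma. There the count was 0, or 1 (Klf4) with the trend and robust options. T18 added Klf2 to these 2, with 6.16% of all genes called lower in both. No other cause of a changed count was tested. In the standard libraries the filter at 5 RPKM left 0 members higher (8.77% of all genes). In TELP N9 the members higher were 0 with that filter (16.1% of all genes) and 0 with T18 (2.54%). They were 2 (Klf10 and Klf15) under median of ratios (20.3%) and 2 under quantile normalization (18.7%). The 5 lower in TELP N9 became 2 under median of ratios (19.0% of all genes) and 3 under quantile normalization (19.8%). With T18 the count was 9, where 86.8% of all genes were called lower. TELP N9 against standard gave 1 member higher at day 0 (Klf7) with a pseudocount of 0.1 (2.87% of all genes). At day 7 it gave 2 with that pseudocount (8.97% of all genes) and 2 under median of ratios (11.4%). It gave 2 under quantile normalization (10.2%) and 0 under equal totals (4.73%). With T18 in place of N9 it gave 0 higher (1.14% of all genes) and 6 lower (88.9%).

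T18 against N9 gave 1 member higher under median of ratios (Klf4), where 9.20% of all genes were called higher. Quantile normalization gave 2 (Klf4 and Klf7), with 11.2% of all genes. All 3 scalings gave 0 lower, with 14.0% to 20.2% of all genes called lower. Values there changed sign. Under median of ratios they were 0.20 for Klf2, 1.22 for Klf4, 0.41 for Klf6, 0.88 for Klf7, 0.78 for Klf9 and 0.25 for Klf15. Under equal totals they were 0.96 for Klf4, 0.13 for Klf6, 0.68 for Klf7, 0.50 for Klf9 and 0.0079 for Klf15. Under quantile normalization they were 0.37 for Klf2, 1.39 for Klf4, 0.52 for Klf6, 1.09 for Klf7, 0.90 for Klf9 and 0.43 for Klf15. T18 in place of N9 turned Klf10 at day 7 against day 0 to -1.49, and TELP against standard at day 7 to -0.68 for Klf2, -0.47 for Klf7, -1.07 for Klf9, -1.57 for Klf10 and -0.26 for Klf15. Scaling also changed the sign of small differences elsewhere. Examples are Klf9 between the days under median of ratios, and Klf7 (-0.11) and Klf9 (-0.12) in TELP N9 against standard at day 7 under equal totals. Of the alternative values of single members, 263 stayed within 0.2 log2 units, 78 moved further and 18 changed sign past a call. The 263 include every value with no filter or the filter at 5 RPKM. A changed filter can drop a member but cannot move its value, so these say nothing about stability. For the replicate numbers, no paired analysis was possible because each RNA group holds 1 library, while the limma fit pairs the days by library type. Depth limits Klf5 and Klf15, which rest on as few as 2 and 8 reads.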
